A study of Mus musculus with 6 samples.

Results

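Prrx1, Prrx2, Alx1, Alx4 and Pitx1 are 5 genes of the paired-type class of homeobox transcription factors, read here by 12 of the 45101 probe sets of an Affymetrix mouse expression array. The members were chosen by name, and every probe set whose platform gene symbol was one of the 5 was taken: 6 for Prrx1, 2 for Alx1, 2 for Pitx1, and 1 each for Prrx2 and Alx4. RNA came from mouse dental pulp, the soft tissue inside the tooth, and the series title places the work in the continuously growing incisor. The 3 control mice were labelled Ring1a-/-;Ring1b flox/flox;CreERT2 and received corn oil, and the 3 Ring1 deletion mice were labelled Ring1a-/-;Ring1b cko/cko;CreERT2 and received 4-hydroxytamoxifen at 40 mg/kg. Injections were at postnatal days 9 and 13, and tissue was taken at day 17. Both groups thus lacked Ring1a, and the drug and the loss of Ring1b cannot be told apart. The labels do not name the promoter that drives the Cre recombinase. Each array was labelled as a biological replicate, so each group had 3 arrays.

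Paired-type homeobox genes encode proteins that bind short AT-rich DNA sites through a homeodomain related to that of the Drosophila gene paired. In the mouse embryo Prrx1 and Prrx2 are expressed in the mesenchyme of the face and limbs, and mice without both have severe defects of the lower jaw and its incisors. Alx1 and Alx4 act in cranial and limb mesenchyme, and Pitx1 is known for the identity of the hindlimb and for expression in the mandible, where it is found in dental epithelium as well as in mesenchyme. Ring1a and Ring1b are the ubiquitin ligases of Polycomb repressive complex 1, which keeps many developmental regulators silent.

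Of the 5 genes, Prrx1 was higher in the deletion arrays and was the only one to pass the test. At the probe set that stood for the gene, its signal was 2.21 times that of control, with a 95% interval from 1.68 to 2.91. The other Prrx1 probe sets tested did not pass, and the folds of all those tested ran from 1.43 to 2.46. The call of Prrx1 ended when control replicate 2 was left out (limma adjusted p = 0.0505). Prrx2, Alx1 and Pitx1 were detected in both groups, had higher means in deletion and did not pass. Alx4 was not called Present on any array. Whether the change of Prrx1 differed from that of the other members was not tested.

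A signal here is the probe set intensity that the MAS5 software gives on a linear scale, and Present, Marginal and Absent are its detection calls. Signals of different probe sets are not compared, because each probe set has its own response. Between 53.8% and 57.9% of probe sets were called Present per array. The ratio of the 3' to the 5' beta-actin control probe sets was 6.47 on control replicate 1 and 3.69 on deletion replicate 1, against 1.83 to 1.97 on the other 4 arrays. Less intact RNA raises this ratio, so the difference of each tested member is also given without the replicate 1 arrays. The targeted transcript, Rnf2 (the gene of Ring1b), had signals of 2693, 2439.6 and 2233 in control and 3165, 3549.6 and 2831 in deletion at the probe set used. The difference at this probe set was 0.37 ± 0.17 (SE) in log2 signal and gave no call (limma adjusted p = 0.33). A second Rnf2 probe set was also Present on all arrays. Its signals were 1017, 1326 and 1195 in control and 1507, 1860 and 1744 in deletion. At both of these probe sets every deletion array lay above every control array. The remaining Rnf2 probe sets were Present on no array. The Ring1 probe set, for Ring1a, was Present on no array. The position of these probe sets against the exons removed by Cre is unknown, and Rnf2 therefore says nothing of the labels.

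**Figure D1:**
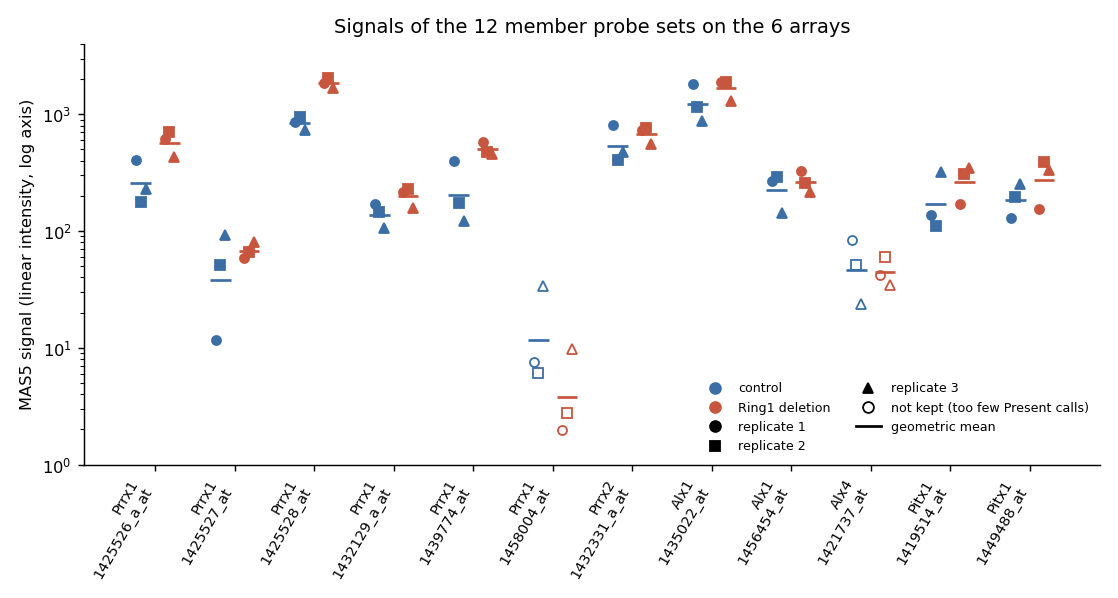
MAS5 signal (log axis) of the 12 member probe sets on the 3 control (blue) and 3 Ring1 deletion (red) arrays, with the symbol giving the replicate number and the bar the geometric mean of the group; open symbols mark the 2 probe sets that were not kept. The groups do not overlap at Prrx1 probe sets 1425526_a_at, 1425528_at and 1439774_at.

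Prrx1 is a regulator of mesenchymal cells of the limb and face, and its probe set 1425528_at had the highest mean of the kept Prrx1 probe sets and stood for the gene in the test. Its signals were 862, 940.3 and 735 on control replicates 1, 2 and 3 and 1847, 2065 and 1690.3 on deletion replicates 1, 2 and 3. All 3 deletion arrays lay above all 3 control arrays, and the spread within each group was small (mean log2 signals of 9.72 ± 0.18 for control and 10.86 ± 0.14 for deletion, SD, n = 3). On the log2 scale deletion exceeded control by 1.15 ± 0.18 (SE), with a limma adjusted p of 0.0114. Over all genes tested, 1.89% rose by that rule, 2.65% changed in either direction, and in 12.2% the deletion arrays all lay above the control arrays. A larger log2 difference than that of Prrx1 was found for 3.04% of the 12250 genes.

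At 1425528_at the rise of Prrx1 was nearly the same in each pair of arrays with one replicate number. It was 1.10, 1.14 and 1.20 on the log2 scale for replicates 1, 2 and 3. The pairs differed more at the other kept Prrx1 probe sets. They gave 0.59, 1.97 and 0.90 at 1425526_a_at and 0.55, 1.44 and 1.91 at 1439774_at. At 1425527_at they gave 2.31, 0.36 and -0.20, and at 1432129_a_at 0.35, 0.65 and 0.57. Without both replicate 1 arrays the difference at 1425528_at was 1.17 ± 0.20 (SE; limma adjusted p = 0.0193). At that probe set it was thus as large without the arrays of high 3' to 5' ratio. Without control replicate 2 the difference was 1.23 and the adjusted p was 0.0505, which ended the call. Over all alternatives the limma adjusted p ranged from 0.000972, in a fit that blocks on replicate number, to 0.0505.

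The other Prrx1 probe sets are separate readings of the same RNA, not further replicates. Probe set 1425526_a_at had signals of 407, 179 and 229.5 in control and 611, 703 and 428 in deletion. Probe set 1439774_at had signals of 397, 175 and 121 in control and 583, 475 and 455 in deletion. At both of these the deletion arrays lay above the control arrays, and control replicate 1 was the highest of its group. Their log2 differences were 1.15 ± 0.33 and 1.30 ± 0.39 (SE), and neither passed in a fit over all 21614 kept probe sets (limma adjusted p = 0.147 and 0.168).

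Probe set 1432129_a_at had signals of 171, 146 and 106 in control and 218, 228 and 156 in deletion. Its lowest deletion array, replicate 3, lay between control arrays, and the difference was 0.52 ± 0.29 (SE) in log2 signal (limma adjusted p = 0.525). Probe set 1425527_at, with signals of 11.7, 51.5 and 92.3 in control and 58.2, 66.2 and 80.1 in deletion, was Present on 1 control array and on all 3 deletion arrays. Its groups overlapped, and its difference of 0.82 ± 0.69 (SE) turned to -0.03 without control replicate 1. Probe set 1458004_at had signals of 7.52, 6.12 and 34.1 in control and 1.97, 2.76 and 9.83 in deletion. Its mean was thus lower in deletion, and its groups overlapped. It was Present on 1 control array and on no deletion array, and was left out of the test.

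In the fit over probe sets, 10 of the 12 member probe sets were kept, 9 of them Present on all arrays and the tenth, 1425527_at, through its calls in deletion. One of the 10 rose, 1425528_at (limma adjusted p = 0.0193), beside 1.14% of all probe sets that rose. That count was 3, each time Prrx1 probe sets 1425526_a_at, 1425528_at and 1439774_at, with the replicate block, without control replicate 1 and without both replicate 1 arrays. The shares of all probe sets that rose were then 4.62% with the block, 1.15% without control replicate 1 and 2.1% without both replicate 1 arrays. The count was 0 when control replicate 2 or 3, or deletion replicate 2 or 3, was the array left out. The groups did not overlap at 3 of the 10, with deletion higher, a separation that 11.2% of all kept probe sets showed.

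**Figure D2:**
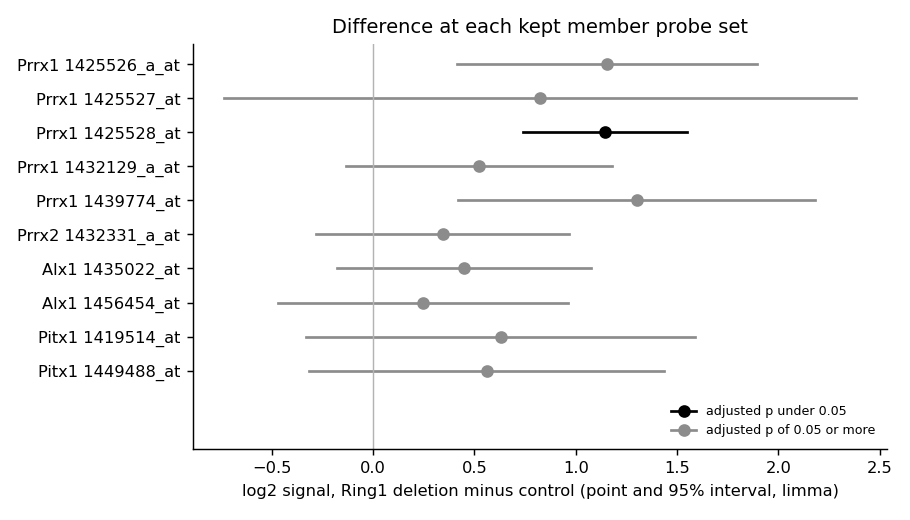
Difference in log2 signal, deletion minus control, with its 95% interval from limma, for the 10 kept member probe sets; black marks an adjusted p under 0.05 over all kept probe sets. The points of Prrx1 lie between 0.52 and 1.30, and the intervals of 3 Prrx1 probe sets lie above 0.

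Prrx2, the paralogue of Prrx1 with an overlapping role in jaw mesenchyme, was detected on every array. Its single probe set, 1432331_a_at, had signals of 802, 406 and 472 in control and 730.5, 770 and 559 in deletion. The groups overlapped through control replicate 1, the highest of all 6 arrays, while the other 2 control arrays lay below every deletion array. The difference was 0.34 ± 0.27 (SE) on the log2 scale, or 1.27-fold with a 95% interval from 0.828 to 1.94 (limma adjusted p = 0.645). It was 0.58 ± 0.23 without both replicate 1 arrays (limma adjusted p = 0.23), 0.63 ± 0.22 without control replicate 1 alone (limma adjusted p = 0.21) and 0.14 without control replicate 2.

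RefSeq sequence upstream of the annotated start was at hand for 2 of the members, the paralogues Prrx1 and Prrx2, and is shown because Polycomb complexes in mammals are known to occupy CpG-rich promoters. Each line gives the 250 bases before the start in GRCm38.p6, 5′ to 3′ on the strand of the gene, with every CpG in capitals. The Prrx1 window is chr1:163313651-163313900 on the minus strand and the Prrx2 window is chr2:30845117-30845366 on the plus strand.
Prrx1: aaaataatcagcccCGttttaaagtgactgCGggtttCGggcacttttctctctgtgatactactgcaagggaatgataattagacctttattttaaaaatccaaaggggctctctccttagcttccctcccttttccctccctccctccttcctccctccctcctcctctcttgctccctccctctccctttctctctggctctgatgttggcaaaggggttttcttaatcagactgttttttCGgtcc
Prrx2: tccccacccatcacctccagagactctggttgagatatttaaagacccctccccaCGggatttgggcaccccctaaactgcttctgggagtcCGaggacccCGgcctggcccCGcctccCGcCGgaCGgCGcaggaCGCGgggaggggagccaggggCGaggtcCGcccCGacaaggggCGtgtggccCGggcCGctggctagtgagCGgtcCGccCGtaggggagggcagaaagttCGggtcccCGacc
The Prrx1 window holds 4 CpG and is 47.6% G or C, and the Prrx2 window holds 21 CpG and is 70.0% G or C. Among 32851 windows of this length in the RefSeq table, 62.2% have at least as many CpG as that of Prrx1 and 16.3% at least as many as that of Prrx2. The letters TAATTA, a core of sites bound by many homeodomains, occur in the Prrx1 window and not in that of Prrx2, counting both strands, and 4.84% of all windows hold them. The letters TAATCC, known for homeodomains of the Pitx type, occur in neither window and in 6.25% of all windows. The CpG counts and these matches describe the letters of the windows alone. Sequence after the annotated start was not counted, and binding was not measured.

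Alx1 encodes a factor needed for cranial mesenchyme in the mouse. Its probe set 1435022_at had signals of 1802, 1151 and 880 in control and 1883, 1908 and 1294 in deletion. Deletion replicates 1 and 2 were the highest arrays, and deletion replicate 3 fell among the control arrays. The difference was 0.45 ± 0.28 (SE) on the log2 scale, or 1.37-fold with a 95% interval from 0.886 to 2.10 (limma adjusted p = 0.522). Without both replicate 1 arrays it was 0.64 ± 0.23 (limma adjusted p = 0.19). Without control replicate 1 alone it was 0.73 ± 0.24 (limma adjusted p = 0.171), and without control replicate 3 it was 0.21. The second Alx1 probe set, 1456454_at, had signals of 269, 288 and 142 in control and 324, 260.1 and 218 in deletion, with overlapping groups. Its difference was 0.25 ± 0.32 (SE; limma adjusted p = 0.842 over probe sets).

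Alx4, known in the mouse for its role in limb patterning and facial midline development, had no Present call among 6 arrays. Its probe set 1421737_at had signals of 84.4, 50.7 and 23.7 in control and 41.7, 60.3 and 34.6 in deletion. The best call was Marginal, on 1 control array. The values overlapped and lay below detection, so no fold is given and Alx4 was not among the genes tested.

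Pitx1 was read by 2 probe sets, both Present on all arrays. Probe set 1449488_at, which stood for the gene, had signals of 129, 195 and 252 in control and 156, 387 and 336 in deletion. Deletion replicate 1 lay among the control arrays, and the other 2 deletion arrays lay above them. The difference was 0.56 ± 0.39 (SE) on the log2 scale, or 1.48-fold with a 95% interval from 0.806 to 2.70 (limma adjusted p = 0.577). It was 0.70 ± 0.25 without both replicate 1 arrays (limma adjusted p = 0.187), 0.96 ± 0.32 without deletion replicate 1 alone (limma adjusted p = 0.195) and 0.30 without control replicate 1 alone. Probe set 1419514_at had signals of 138, 111 and 317 in control and 170.2, 306 and 345 in deletion, again overlapping, with a difference of 0.63 ± 0.43 (SE; limma adjusted p = 0.628 over probe sets).

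**Figure D3:**
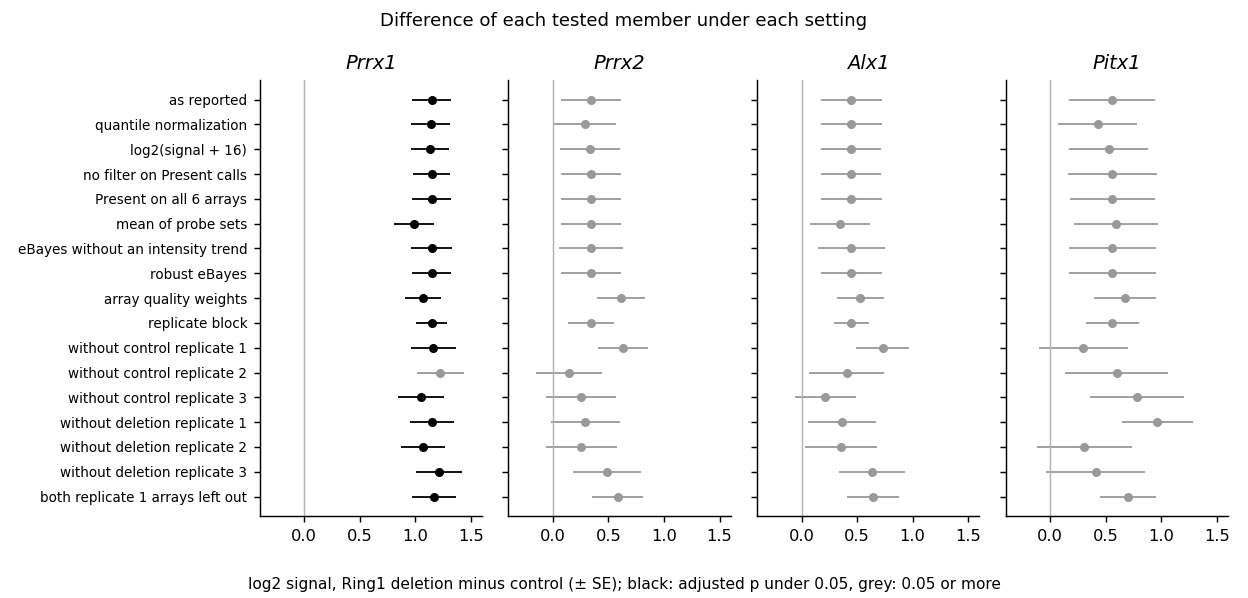
Difference in log2 signal of Prrx1, Prrx2, Alx1 and Pitx1, with its SE, as reported and under 16 alternatives; black marks an adjusted p under 0.05. Prrx1 stays between 0.99 and 1.23 and is grey once, without control replicate 2, while the other 3 genes are positive and grey throughout.

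The replicate 1 arrays stood low at Pitx1 probe set 1449488_at, with 129 in control and 156 in deletion, each the lowest of its group. At 1419514_at deletion replicate 1 was again lowest, at 170.2. In control, replicate 2, at 111, lay below replicate 1, at 138. Control replicate 1 was the highest control array for Prrx2 and for 1435022_at of Alx1. Signals of epithelial markers also varied. The summed signal of 14 dental epithelium genes ran from 129015 to 177726 in control and from 55485 to 208446 in deletion. It was lowest on deletion replicate 1. Amelx and Ambn made up much of the sum, with 56632.5 and 47381 of 165272 on control replicate 1. Amelx, Ambn, Enam and Mmp20 were highest among controls on control replicate 1. Epcam, Cdh1, Krt5, Krt14, Krt17, Trp63, Shh, Odam and Amtn were lowest on replicate 1 in each group, and Klk4 in control alone. All 14 were Present on every array of both groups in at least one probe set, so the samples labelled dental pulp carried epithelial RNA. In bulk RNA, fewer cells of a type and less RNA per cell cannot be told apart. The part of epithelium in the Pitx1 values was not tested.

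**Figure D4:**
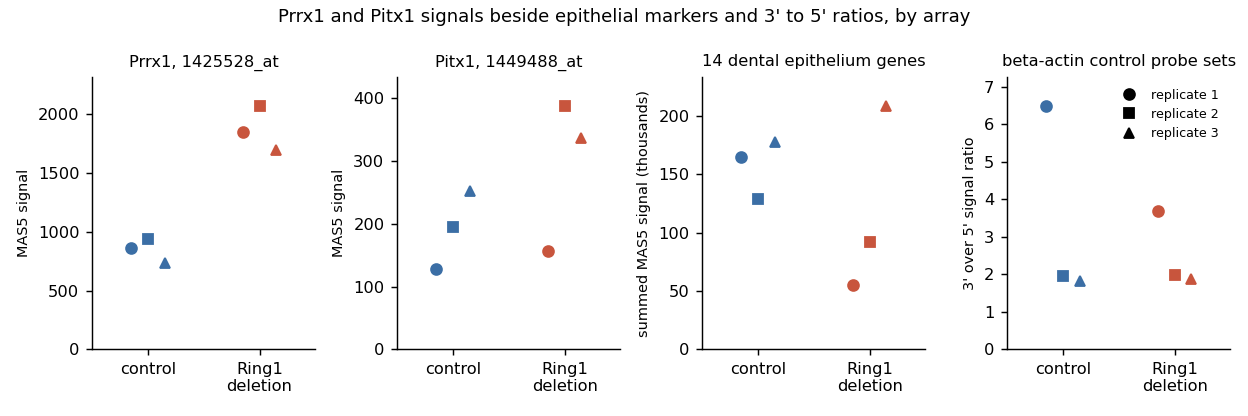
Values on each array (blue control, red deletion, symbols for replicate number) of Prrx1 probe set 1425528_at, Pitx1 probe set 1449488_at, the summed signal of 14 dental epithelium genes, and the 3' over 5' ratio of the beta-actin control probe sets. Prrx1 separates the groups, Pitx1 and the epithelial sum do not, and both replicate 1 arrays have high actin ratios.

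Markers of the labelled tissue were abundant, with all 9 pulp mesenchyme genes and 5 of 6 odontoblast genes Present on every array of both groups. The summed signal of the pulp mesenchyme genes was 206229 to 255570 in control and 210975 to 263768 in deletion, and none of the 9 changed. Their median log2 difference was 0.04, beside 0.02 over all genes tested. One of 5 odontoblast genes fell, Col24a1, and 1 of 14 epithelial genes fell, Shh. No gene passed among 6 endothelial, 4 perivascular, 5 immune, 3 Schwann cell, 4 bone and 2 muscle genes tested. Without both replicate 1 arrays 3 pulp mesenchyme genes, 2 cartilage genes and 1 bone gene rose and 3 epithelial genes fell.

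With the replicate block more marker genes passed, as did more genes in all, 789 rising and 513 falling of 12250. Among epithelial genes 4 fell, Shh, Mmp20, Epcam and Cdh1, and Klk4 rose. Among pulp mesenchyme genes Postn, Col3a1 and Pdgfrb rose, and of the odontoblast genes Col24a1 and Nes fell. The perivascular genes Acta2 and Cspg4 fell and rose in turn (limma adjusted p = 0.00266 and 0.032), and the bone gene Ibsp rose (limma adjusted p = 0.00122). In the blocked fit no endothelial, immune, Schwann cell or muscle gene passed. The part of these cell types in the Prrx1 values was not tested.

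Cartilage genes moved beside Prrx1 in part. Col2a1, the main collagen of cartilage, was Present on no control array and on all 3 deletion arrays, with signals of 105, 105 and 60.4 in control and 781, 1212 and 864 in deletion. The fitted fold was 10.7, with a 95% interval from 6.81 to 16.9 (limma adjusted p = 0.0017), over control signals not called Present. Raising control signals to at least the lowest signal of detected probe sets left this fold unchanged. Of the 4 cartilage genes tested, Col2a1 was the one that passed in the main fit, which used all 6 arrays and no block. It entered the test only through its deletion arrays. Col9a1, a minor collagen of cartilage, had signals of 558, 261 and 226 in control and 1415, 930.1 and 506 in deletion. Its groups overlapped, deletion was higher in each pair with one replicate number, and the difference was 1.45 ± 0.42 (SE; limma adjusted p = 0.121). With the replicate block Col9a1 rose as well (limma adjusted p = 0.00131). Acan and Matn1 had too few Present calls to be tested, and Sox9, a regulator of cartilage, had a difference of 0.21 ± 0.23 (SE; limma adjusted p = 0.771). Col11a2, a collagen with signals of 7514, 5129 and 2497 in control and 5886, 3338 and 2644 in deletion, had a difference of -0.30 ± 0.41 (SE; limma adjusted p = 0.819). The summed signal of the 4 was 3661 to 8925 in control and 4774 to 9295 in deletion, most of it from Col11a2, and so does not show the values of Col2a1 and Col9a1. The part of cartilage cells in the Prrx1 values was not tested.

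The genes whose log2 signals followed Prrx1 most closely over the 6 arrays were Col2a1 (Pearson r = 0.994), Lef1 (0.993) and Pcdh18 (0.993). Lef1, a transcription factor of Wnt signalling, had signals of 247, 258 and 230.4 in control and 452, 544 and 429 in deletion. Pcdh18, a protocadherin, had signals of 1153, 1181 and 1026 in control and 1760.1, 1893 and 1817 in deletion. In all 3 genes the deletion arrays lay above the control arrays, so the likeness mainly restates the order of the groups.

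For the members that did not pass, none of the closest genes passed either. Prrx2 was most like Ccbe1 (r = 0.99), a secreted factor of lymphatic vessel growth, with signals of 352, 207 and 245 in control and 342, 372 and 282 in deletion. Alx1 was most like Dlk1 (r = 0.996), a paternally expressed gene with signals of 435, 316 and 279 in control and 444, 435 and 349 in deletion. Pitx1 was most like Rbm26 (r = 0.996), and the third gene, Eln, encoding elastin (r = 0.995), had signals of 292, 458 and 551 in control and 343, 801 and 667 in deletion. Control replicate 1 was the highest control array for Ccbe1 and Dlk1 and the lowest for Eln. The same held at the probe sets that stood for the members they follow. With 6 arrays and 12250 genes to choose from, high values of r are to be had for any gene, and they describe these arrays alone.

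Of 23 other paired-type homeobox genes listed, 16 were named on the array, and 10 of these had no Present call in either group. Of the 5 tested, 2 rose, Shox2 and Phox2a. Shox2, a regulator of limb bones, palate and the jaw joint, had signals of 221, 116 and 248 in control and 769, 910.1 and 887 in deletion. The groups were far apart, and the rise was 2.20 ± 0.29 (SE) in log2 signal (limma adjusted p = 0.00687). Phox2a, a determinant of autonomic neurons, was Present on no control array and on every deletion array, with signals of 43.6, 47.6 and 42.5 in control and 233, 360.3 and 174 in deletion. Its fitted fold was 5.49, with a 95% interval from 3.23 to 9.35 (limma adjusted p = 0.00847). A gene undetected in control could enter the test only through its deletion signals.

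Gsc, the goosecoid gene of craniofacial development, was Present on all arrays, with signals of 299, 175 and 192 in control and 134, 176 and 154 in deletion. Its groups overlapped, and its difference was -0.49 ± 0.28 (SE; limma adjusted p = 0.486). Sebox had a difference of 0.47 ± 0.29 (SE) and likewise did not pass (limma adjusted p = 0.527). Shox2 and Phox2a were called beside the 1.89% of all genes that rose.

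A further list held 18 genes reported downstream of the members, or acting beside them, in limb, face, pituitary or tooth. Of the 11 tested, Lef1 rose and Shh fell, while 2.65% of all genes changed in either direction. Shh, a signal of the dental epithelium that lies downstream of Prrx1 and Prrx2 in the mouse mandible, had signals of 15606, 19140.5 and 24801 in control and 3118, 3949 and 7350 in deletion (limma adjusted p = 0.00931). Every deletion array lay below every control array. The rise of Lef1, 0.95 ± 0.20 (SE) in log2 signal (limma adjusted p = 0.0429), was lost when any 1 array was left out, without both replicate 1 arrays, with quantile normalization or with no detection filter.

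Other genes of that list gave no call. Tnc, the tenascin gene that Prrx1 is known to activate, had a difference of 0.12 ± 0.27 (SE; limma adjusted p = 0.903). Barx1, a tooth homeobox gene whose expression depends on Pitx1 in the mouse mandible, was Present on no control array and on every deletion array. Its signals were 80.7, 212 and 251 in control and 231, 366 and 320 in deletion, which overlapped (limma adjusted p = 0.366). Gli3 had a difference of 0.55 ± 0.16 and Pomc, a Pitx1 target of the pituitary, one of 0.56 ± 0.23 (SE; limma adjusted p = 0.128 and 0.289). In the blocked fit Lef1 and Gli3 rose and Shh and Tbx1 fell.

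Of 18 mesenchymal transcription factors of jaw and limb, 14 were tested, 3 rose and none fell, while 1.89% of all genes rose. The 3 were Tbx15, Tbx18 and Pax3, each Present on no control array and on all 3 deletion arrays. Tbx18, a T-box factor of somites and limb, had signals of 29.5, 5.58 and 22.6 in control and 474, 563 and 615 in deletion. Its fitted fold was 35.4, with a 95% interval from 14.5 to 86.4 (limma adjusted p = 0.00463). With control signals raised to at least the lowest signal of detected probe sets, the fold was 27.1. The fitted fold of Tbx15 was 8.12, with a 95% interval from 4.82 to 13.7 (limma adjusted p = 0.00463). That of Pax3, a factor of neural crest and muscle precursors, was 10.3, from 4.98 to 21.5 (limma adjusted p = 0.00847). All 3 entered the test through the deletion arrays.

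The detected mesenchymal factors of that list moved less. Foxc2 and Foxd1, with differences of 1.07 ± 0.27 and 1.29 ± 0.34 (SE), missed the threshold (limma adjusted p = 0.0765 and 0.0892). Twist1, a regulator of cranial mesenchyme, had a difference of 0.81 ± 0.33 (SE; limma adjusted p = 0.281). Snai1, Zeb1 and Tfap2a had differences of 0.005, 0.04 and 0.08, and Twist2 one of -0.13. Of the 14 tested, 13 had a higher mean in deletion, as did 6432 of all 12250 genes. Of the 10 listed factors Present on all 6 arrays none rose in the main fit. With the replicate block 8 of the 14 rose, Tbx15, Tbx18 and Pax3 as well as Foxc2, Foxd1 and Twist1 among them, while 6.44% of all genes rose.

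**Figure D5:**
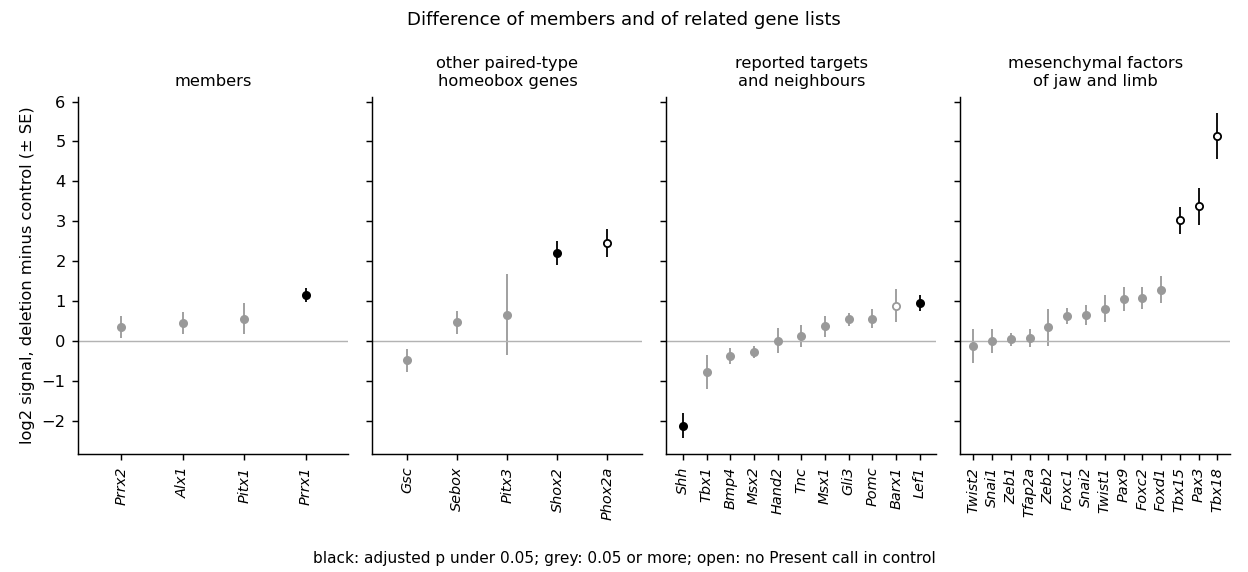
Difference in log2 signal, deletion minus control, with its SE, for the tested members and the tested genes of 3 related lists; black marks an adjusted p under 0.05 and open symbols genes with no Present call in control. Prrx1 at 1.15 is the one black point among 4 members, and Tbx18, Pax3 and Tbx15 have the largest fitted values, over undetected control signals.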

How the data were processed

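The authors deposited 1 MAS5 signal intensity per probe set and array on a linear scale, per the submitters' processing notes, with a trimmed mean of 500 on each array as found from the values. Detection calls came from a workbook that the authors deposited, in which a column can be tied to a group and not to a replicate, and 12 other columns of it were left aside. Per the labels' protocols, RNA was amplified as cDNA from small amounts and again by in vitro transcription, which can skew levels. The version and settings of MAS5 are not given in the sources used here. The array annotation can be old. Precision is limited by the number of arrays.

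Probe sets with 1 symbol (34945) were kept if Present on at least 3 of 6 arrays (21614). The brightest kept probe set stood for its gene, giving 12250 genes. Log2 was taken after raising signals below 1 to 1. The comparison used limma 3.58.1 under R 4.3.3 (eBayes with an intensity trend, two-sided, Benjamini-Hochberg over everything tested, threshold 0.05), over genes and over probe sets, after a test on simulated data.

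Members and lists were chosen with earlier results of these data known. Named genes were all members, the 3 genes most like each tested member, up to 4 genes of smallest p per list and those Present in 1 group alone. Foxd1, Twist1, Twist2, Snai1, Zeb1, Tfap2a, Tnc, Tbx1 and the marker genes were named after their values were seen. Same-numbered arrays deviated together from their group means (r = 0.485, 0.189 and 0.286 for replicates 1, 2 and 3), and every r over 0.1 was the rule by which numbers were taken to pair the arrays in the blocked fit. Values above 0.1 were also seen for control replicate 3 with deletion replicate 2 (r = 0.213) and control replicate 2 with deletion replicate 3 (r = 0.117), so the correlations set apart replicate 1 and not replicates 2 and 3.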

Additional observations from a re-analysis of the deposited data

How the results depend on the processing

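Prrx1 kept its direction and its call under all alternatives but 1. Left out in turn, single arrays gave log2 differences from 1.05 to 1.23, the last without control replicate 2, where the call ended (limma adjusted p = 0.0505). Prrx2, Alx1 and Pitx1 were higher in deletion and did not pass as genes under any alternative run. Alx4 was left out by the detection filter and has no main value; without the filter it entered the fit over probe sets and gave no call (limma adjusted p = 0.986). The other alternatives keep the filter and give Alx4 no value. The number of genes changed, 325, was 204 among genes Present on all 6 arrays, 1106 with array quality weights, 1302 with the replicate block, 500 without both replicate 1 arrays, and 94 to 300 with single arrays left out, lowest without control replicate 2. The number of member probe sets changed, 1, was 0 without an intensity trend, 3 with array quality weights, 3 with the replicate block, 3 without both replicate 1 arrays, and 0 to 3 with single arrays left out. The shares of all probe sets that rose were 1.14% as reported, 4.62% with the block and 2.1% without both replicate 1 arrays. That share was not taken with array quality weights, where 691 of the 12250 genes rose, beside 232 as reported. The replicate block changed no call of a member gene. Detection filtering does not follow the arrays left out, because calls are known only by group. With 3 arrays in each group, the intervals of Prrx2, Alx1 and Pitx1 still hold changes near 2-fold. Counts for the 3 related lists under each alternative were added after seeing the data: the 2 risen paired-type genes were 1 among genes Present on all 6 arrays and 2 otherwise, and the 3 risen mesenchymal factors were 0 among genes Present on all 6 arrays, 8 with the block and 9 with array quality weights.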
